A study of Mus musculus with 20 samples.

Results

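The genes described are 27 genes of cholesterol synthesis and its control by SREBP2, chosen by symbol for their known roles in that pathway. They are 27 of the 50559 genes in the count table, and each had enough reads to be tested in every comparison. Sterol regulatory element-binding protein 2, the product of *Srebf2*, is the transcription factor that turns on the enzymes of cholesterol synthesis when a cell's membranes run low in sterol. RNA was sequenced from 20 mouse livers, 5 in each of 4 groups, and reads were counted per gene. All mice carried *Cideb* fl/fl, in which loxP sites flank exon 2 of *Cideb*, a gene for a lipid droplet protein that helps droplets grow and helps load VLDL with lipid. The vector was AAV-TBG-GFP for WT livers and AAV-TBG-Cre for KO livers. Its TBG promoter drives the transgene in hepatocytes, so other liver cells keep the gene. The study puts the vector at 6 weeks of age. The labels do not give the sex of these mice. The study describes male and, separately, female mice of this kind on both diets, without stating the sex of the sequenced livers.

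The mice were fed either WD or CDA-HFD. The study's methods describe WD as solid food rich in sugar, fat and cholesterol, given with sugared water. The methods describe CDA-HFD as a high-fat food deficient in methionine and choline. They name cholesterol as a part of WD and state no cholesterol content for CDA-HFD. The study's text gives 24 weeks of WD and 12 weeks of CDA-HFD, while the labels give 3 months for both. A difference between the diets therefore cannot be told apart from one of feeding time.

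Cholesterol is built from acetyl-CoA through mevalonate, the isoprenoid farnesyl diphosphate, squalene and lanosterol, and lanosterol is then trimmed and rearranged to cholesterol. When sterols are plentiful, the INSIG proteins hold SCAP and its cargo SREBP2 in the endoplasmic reticulum. When sterols are scarce, SCAP carries SREBP2 to the Golgi, where it is cut and freed to enter the nucleus. The liver both makes cholesterol and takes it up from the diet, and cholesterol in food is a classic brake on this pathway.

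The promoters of 4 of these genes are shown because their transcripts carry the contrast between the diets: *Hmgcs1*, *Idi1* and *Cyp51* rose on CDA-HFD, and *Insig1*, also a known SREBP2 target, did not. Each sequence runs 5′ to 3′ on the gene's own strand from 250 bases before to 50 bases after the RefSeq start in GRCm38.p6. Capitals mark the sterol response element TCACNCCAC, the CCAAT box bound by NF-Y and the GC box GGGCGG bound by SP1, found on either strand (CCAAT reads ATTGG, and GGGCGG reads CCGCCC, on the opposite one). Their positions are chr13:119690101-119690400 on the plus strand for *Hmgcs1*, chr13:8885356-8885655 on the plus strand for *Idi1*, chr5:4104648-4104947 on the minus strand for *Cyp51* and chr5:28071162-28071461 on the plus strand for *Insig1*.
Hmgcs1: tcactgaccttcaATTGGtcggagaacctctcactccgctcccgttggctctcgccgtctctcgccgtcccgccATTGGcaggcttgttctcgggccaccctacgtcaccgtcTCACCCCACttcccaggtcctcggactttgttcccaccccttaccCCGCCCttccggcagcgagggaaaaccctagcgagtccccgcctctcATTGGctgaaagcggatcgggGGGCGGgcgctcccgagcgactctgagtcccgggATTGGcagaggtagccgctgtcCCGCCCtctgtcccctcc
Idi1: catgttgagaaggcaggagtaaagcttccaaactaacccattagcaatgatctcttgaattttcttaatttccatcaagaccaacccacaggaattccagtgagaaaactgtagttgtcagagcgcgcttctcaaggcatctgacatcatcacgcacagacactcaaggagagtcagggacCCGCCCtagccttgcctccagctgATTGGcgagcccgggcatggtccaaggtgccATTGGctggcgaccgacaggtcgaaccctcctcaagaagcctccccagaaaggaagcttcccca
Cyp51: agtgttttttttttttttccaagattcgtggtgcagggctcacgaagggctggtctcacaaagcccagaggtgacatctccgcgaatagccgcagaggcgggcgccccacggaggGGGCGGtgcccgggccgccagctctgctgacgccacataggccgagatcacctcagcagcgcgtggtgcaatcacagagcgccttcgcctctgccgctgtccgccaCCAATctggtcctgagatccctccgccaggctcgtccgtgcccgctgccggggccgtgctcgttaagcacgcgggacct
Insig1: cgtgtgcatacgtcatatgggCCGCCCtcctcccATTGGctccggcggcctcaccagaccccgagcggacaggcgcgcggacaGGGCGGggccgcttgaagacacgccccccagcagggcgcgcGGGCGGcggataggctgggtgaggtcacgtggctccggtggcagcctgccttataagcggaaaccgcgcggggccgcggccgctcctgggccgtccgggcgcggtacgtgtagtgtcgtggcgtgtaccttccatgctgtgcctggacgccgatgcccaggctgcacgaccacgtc

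Of the 27 genes, 22 had a promoter in the RefSeq table, and *Sqle*, *Fdft1*, *Fdps*, *Stard4* and *Npc1* had no entry. A CCAAT box stood in a promoter of 20 of the 22 genes (90.9%), against 41.1% of all 27025 genes in the table. A GC box also stood in 20 of 22 (90.9%), against 38.2% of all genes. The strict sterol response element stood in 1 of 22 (4.55%), that of *Hmgcs1*, where it begins 137 bases before the start, against 1.44% of all genes. These are matches of letters and not measured sites, and none overlaps another in the 4 sequences shown. The promoter of *Insig1* held 1 CCAAT box and 3 GC boxes and that of *Hmgcs1* held 4 and 3.

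Between 11697049 and 16827147 reads were counted on genes per liver, of which 24666 to 46913 fell on the 27 genes, and a single gene had between 20 and 8197 reads in a liver. *Cideb* had 52 to 100 reads in WT livers and 0 to 5 in KO livers on WD, and 35 to 60 and 0 to 6 on CDA-HFD, so every library went with its label. The hepatocyte markers were abundant in every liver, and summed to at least 37822 CPM, a read count scaled to library size. The macrophage markers summed to 444 to 1458 CPM in WT and 379 to 716 CPM in KO livers on WD, and to 2179 to 4211 and 681 to 2636 CPM on CDA-HFD, and all 12 had reads in each group. Of the marker lists, only the lymphocyte list held a marker without reads, *Trac*. In RNA from whole liver, fewer cells of a type and less RNA per cell cannot be told apart. A few livers stood apart within their group. WT livers 1 and 2 on WD had the highest average of the 27 genes there, and KO liver 5 on CDA-HFD had the lowest of its group and the highest average of the macrophage markers. The main results are given with and without them.

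Values below are CPM normalized by edgeR's TMM method. Fold changes are on the log2 scale with a 95% confidence interval. Genes were called by edgeR's quasi-likelihood test where the p-value, adjusted over all genes tested by the method of Benjamini and Hochberg, was under 0.05. The study states in general that its mice came from several litters and its data from several experiments, without saying which livers belong together, so p-values measure the spread between these livers.

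Per kilobase of exon, the genes spanned a wide range in WT livers on WD. *Insig1* stood highest at 85.9 ± 11.6 CPM per kilobase (SD, n = 5), followed by *Insig2* at 82.9 ± 11.01 and *Sc5d* at 81.7 ± 9.74, and those 3 levels lay within each other's SD. At the low end stood *Sqle* at 2.52 ± 1.69, *Mvd* at 1.68 ± 0.54 and *Idi1* at 0.99 ± 0.30 CPM per kilobase. On CDA-HFD *Hmgcs1* took the first place, at 94.2 ± 23.9 CPM per kilobase in WT and 74.1 ± 22.0 in KO livers. *Insig2* was then in place 7, at 23.0 ± 4.92 in WT and 31.4 ± 7.08 in KO livers. *Sqle* moved from place 25 on WD to place 12 on CDA-HFD in WT livers. In KO livers it went from place 27 to place 16. The exon lengths join all annotated isoforms, so the levels of genes with long minor isoforms are understated.

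The first question was how the pathway differed between the diets. In WT livers, 19 of 27 genes passed, against 51.1% of 16726 genes tested: 11 were higher on CDA-HFD, where 25.9% of all genes were, and 8 were lower, where 25.2% were. In KO livers, 14 of 27 passed, against 17.0% of 16387 genes: 12 were higher, where 9.19% of all genes were, and 2 were lower, where 7.85% were. The median log2 fold change of the 27 genes was 0.16 in WT and 0.38 in KO livers, and that of all genes tested was -0.003 and 0.003. An unadjusted p under 0.05 was found for 20 of the 27 in WT and 18 in KO livers, against 57.2% and 33.3% of all genes. The diet groups did not overlap for 15 of the 27 in WT and 12 in KO livers, against 37.2% and 15.2% of all genes. The WT and KO livers compared here are different animals. In both, 12 genes passed, all in the same direction: *Srebf2*, *Hmgcs1*, *Mvk*, *Idi1*, *Fdft1*, *Sqle*, *Cyp51*, *Lbr*, *Msmo1* and *Nsdhl* rose, and *Insig2* and *Sc5d* fell. They are 12 of the 19 that passed in WT and 12 of the 14 that passed in KO livers. The share of all genes that passed in both was not counted, so this overlap has no background to be set against. Without WT livers 1 and 2 on WD, 12 were higher and 8 lower in WT livers (26.0% and 23.7% of all genes). Without KO liver 5 on CDA-HFD, 15 were higher and 2 lower in KO livers (9.03% and 8.37% of all genes).

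**Figure D1:**
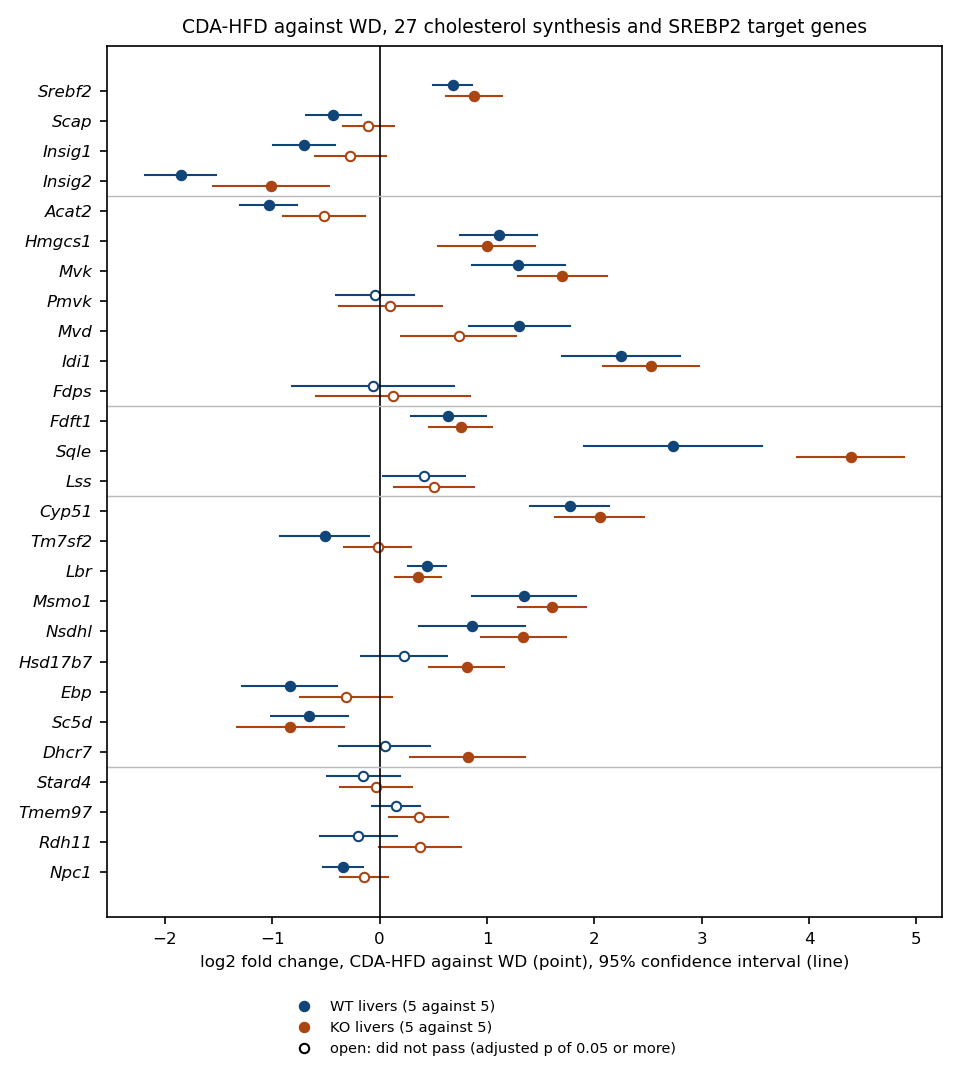
Log2 fold change of CDA-HFD against WD (x axis) for each of the 27 genes (y axis, ordered by role and divided by lines), in WT livers (blue) and KO livers (brown), each 5 against 5. Points are estimates and lines 95% confidence intervals; filled points passed the adjusted threshold. *Sqle* lies farthest right, at 2.73 in WT and 4.39 in KO, and *Insig2* farthest left, at -1.85 and -1.01.

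By this normalization most genes of the genome were centred at no change. With scaling by library size alone, the median of all genes rose by 0.42 in WT and by 0.25 in KO livers. The split in WT livers was then 15 higher and 4 lower in place of 11 and 8, with *Insig1*, *Insig2*, *Acat2* and *Ebp* as the 4. By that scaling 54.5% of all genes were higher and 9.39% lower, in place of 25.9% and 25.2%, so the split moved with the genome. Changes below are relative to the genome's median.

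The 4 genes of the sterol sensor did not move together: in WT livers 1 rose and 3 fell, and in KO livers 1 rose and 1 fell. Among all genes 25.9% rose and 25.2% fell in WT livers, and 9.19% and 7.85% in KO livers. *Srebf2* was 72.8, 67.9, 62.9, 60.5 and 63.5 CPM in WT livers 1 to 5 on WD and 108, 106, 103, 117 and 93.1 CPM on CDA-HFD. The KO livers had 60.96, 58.6, 76.9, 52.6 and 65.9 CPM on WD and 134, 115, 127, 101 and 103 CPM on CDA-HFD. In both genotypes, every liver on CDA-HFD lay above every liver on WD. This gave a log2 fold change of 0.68 (0.50 to 0.86, adjusted p = 6.38e-05) in WT and 0.88 (0.62 to 1.14, adjusted p = 0.000869) in KO livers.

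*Insig2*, which encodes the second of the INSIG proteins and is transcribed in liver from a promoter that insulin represses, went the other way. In WT livers it was 224, 290.3, 326, 293 and 306 CPM on WD and 69.1, 95.5, 60.4, 74.6 and 99.9 CPM on CDA-HFD. Its values in KO livers were 242, 174, 195, 133 and 359.6 CPM on WD and 125, 75.6, 139.9, 102 and 103 CPM on CDA-HFD. The WT groups lay far apart, and in KO livers only liver 4 on WD reached the range on CDA-HFD. The log2 fold change was -1.85 (-2.18 to -1.52, adjusted p = 9.01e-06) in WT, where it was the gene of the 27 with the smallest p. In KO livers it was -1.01 (-1.56 to -0.47, adjusted p = 0.0197).

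*Insig1*, the INSIG gene that SREBP2 itself activates, was 274, 221, 300.1, 297 and 236 CPM in WT livers on WD and 158, 209.6, 144, 172 and 135 CPM on CDA-HFD. KO livers 1 to 5 had 269.6, 200.5, 238, 253 and 232 CPM on WD and 185, 224, 259.7, 179 and 138 CPM on CDA-HFD. The WT groups did not overlap and the KO groups did. *Insig1* fell in WT livers, with a log2 fold change of -0.70 (-0.99 to -0.41, adjusted p = 0.00105), and the estimate in KO livers was -0.27 (-0.61 to 0.06, adjusted p = 0.236). *Scap*, the escort protein's gene, fell in WT livers from 126 ± 5.33 to 93.4 ± 17.8 CPM (SD, n = 5, log2 fold change -0.43, adjusted p = 0.00904). In KO livers *Scap* was 133 ± 10.1 CPM on WD and 124 ± 18.7 CPM on CDA-HFD, and did not pass (adjusted p = 0.538). The fall of *Scap* in WT livers was lost with library size alone, at -0.02 on the log2 scale.

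**Figure D2:**
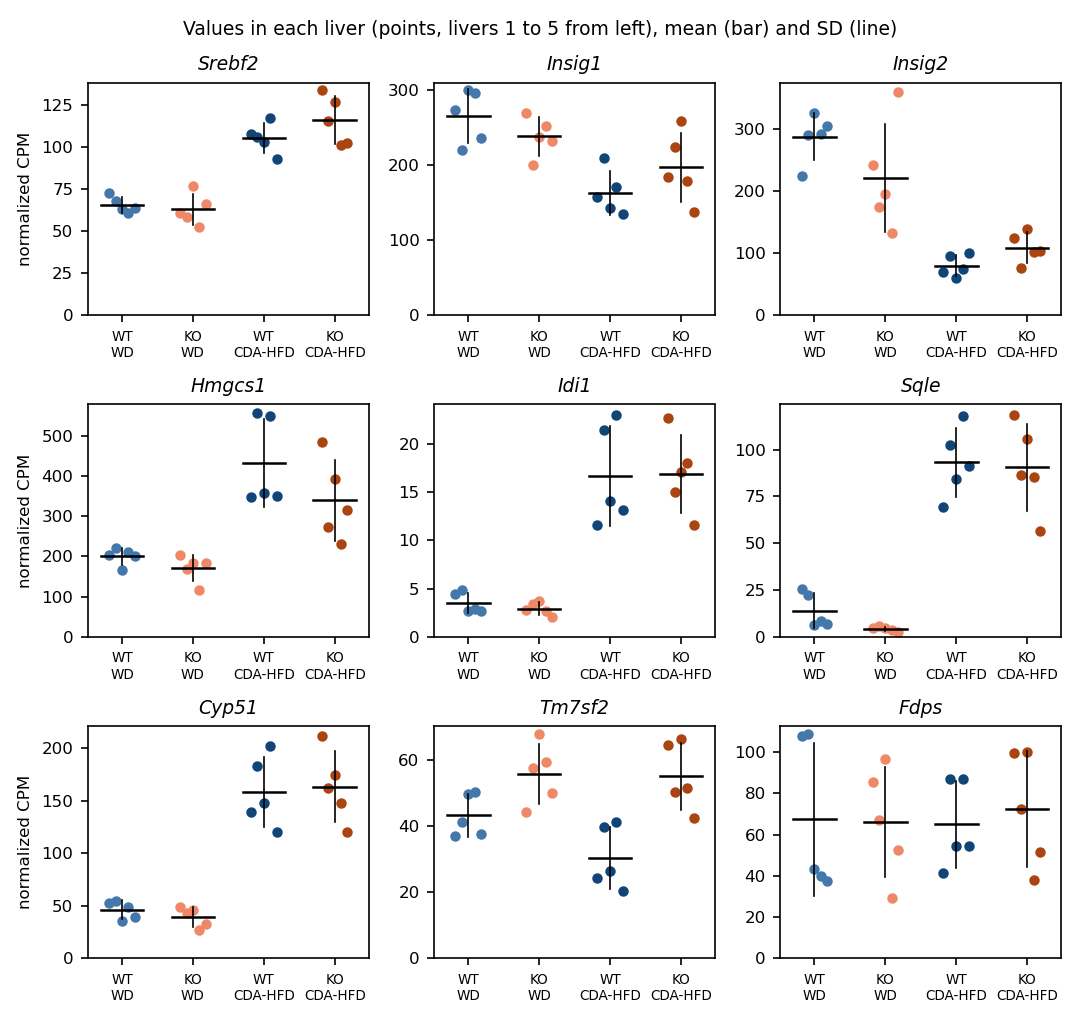
Normalized CPM (y axis, from 0) of 9 genes in each of the 20 livers, by group (x axis). Points are livers 1 to 5 from left to right, bars are group means and vertical lines SDs. *Srebf2*, *Hmgcs1*, *Idi1*, *Sqle* and *Cyp51* are higher on CDA-HFD in both genotypes without overlap, and *Fdps* overlaps between all 4 groups. Of all genes, 37.2% in WT and 15.2% in KO livers do not overlap between the diets.

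Of the 7 genes from acetyl-CoA to farnesyl diphosphate, 4 rose and 1 fell in WT livers, where 25.9% and 25.2% of all genes did. In KO livers 3 rose and 0 fell, where 9.19% and 7.85% of all genes did. *Idi1*, the isomerase that makes the reactive isoprene unit, was 4.39, 4.87, 2.67, 2.86 and 2.64 CPM in WT livers on WD and 11.6, 21.4, 14.03, 23.00 and 13.1 CPM on CDA-HFD. Among KO livers the values were 2.82, 3.38, 3.70, 2.69 and 2.05 CPM on WD and 22.6, 14.95, 17.1, 18.03 and 11.6 CPM on CDA-HFD. The lowest liver on CDA-HFD was over 2 times the highest on WD in both genotypes. *Idi1* rose by 2.25 (1.70 to 2.80, adjusted p = 4.57e-05) on the log2 scale in WT and by 2.52 (2.08 to 2.97, adjusted p = 5.83e-05) in KO livers. Of the 75-base windows in its exons, 23.6% also occur elsewhere in the transcriptome, for the most part in the predicted gene *Gm13502*, so its level may be understated.

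*Mvk*, mevalonate kinase, was 11.5, 12.5, 6.70, 6.90 and 7.78 CPM in WT livers on WD and 21.9, 25.9, 18.4, 27.3 and 18.3 CPM on CDA-HFD. The KO livers had 6.45, 7.38, 8.79, 7.93 and 6.07 CPM on WD and 29.8, 23.3, 28.5, 14.8 and 22.3 CPM on CDA-HFD. No liver on WD reached the range on CDA-HFD in either genotype. This gave a log2 fold change of 1.29 (0.86 to 1.73, adjusted p = 0.000285) in WT and 1.70 (1.29 to 2.11, adjusted p = 0.000270) in KO livers. *Hmgcs1*, the cytosolic HMG-CoA synthase, rose from 200.2 ± 20.7 to 433 ± 110.0 CPM in WT and from 171 ± 32.96 to 340.3 ± 101 CPM in KO livers (SD, n = 5). *Mvd*, a decarboxylase later in the pathway, rose in WT livers from 3.12 ± 1.01 to 7.76 ± 1.21 CPM (adjusted p = 0.000432). In KO livers *Mvd* was 3.75 ± 0.994 and 6.23 ± 1.77 CPM and did not pass (adjusted p = 0.0596).

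*Acat2*, the cytosolic thiolase that makes the first intermediate of the pathway, stood against its neighbours. It was 28.7, 28.97, 27.9, 28.8 and 25.3 CPM in WT livers on WD and 13.7, 15.6, 13.1, 15.96 and 9.95 CPM on CDA-HFD. Its values in KO livers were 29.2, 24.7, 30.4, 17.2 and 27.3 CPM on WD and 20.2, 18.4, 22.4, 14.5 and 14.2 CPM on CDA-HFD. The WT groups did not overlap and the KO groups did. *Acat2* fell in WT livers, with a log2 fold change of -1.03 (-1.30 to -0.77, adjusted p = 5.79e-05), and had -0.52 (-0.90 to -0.14, adjusted p = 0.0596) in KO livers. Its exons share 33.9% of their 75-base windows with other transcripts, for the most part with its paralog *Acat3*, so reads could be lost or split between them. The kinase *Pmvk* and the farnesyl diphosphate synthase *Fdps* passed in neither genotype. *Pmvk* had log2 fold changes of -0.04 (-0.40 to 0.32) in WT and 0.10 (-0.38 to 0.58) in KO livers. *Fdps* had -0.06 (-0.81 to 0.69) and 0.13 (-0.59 to 0.85). Both intervals are wide, and *Fdps* varied more between the livers of a group than most of the 27 genes.

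The 3 enzymes from farnesyl diphosphate to lanosterol held the largest difference. *Sqle*, squalene epoxidase, which performs the first oxygen-dependent and a rate-limiting step, was 25.8, 22.4, 6.55, 8.38 and 6.68 CPM in WT livers on WD and 69.2, 103, 84.5, 118 and 91.3 CPM on CDA-HFD. KO livers 1 to 5 had 4.91, 5.58, 4.62, 3.69 and 2.84 CPM on WD and 118, 86.2, 106, 85.5 and 56.8 CPM on CDA-HFD. The groups lay far apart in both genotypes, and WT livers 1 and 2 stood over the other WT livers on WD. The log2 fold change was 2.73 (1.90 to 3.56, adjusted p = 0.000154) in WT livers and 4.39 (3.89 to 4.88, adjusted p = 1.82e-06) in KO livers. These are rises of 6.65-fold and 20.9-fold. Without WT livers 1 and 2 on WD, the WT value was 3.69. *Fdft1*, squalene synthase, rose in WT (0.64, adjusted p = 0.00581) and in KO livers (0.76, adjusted p = 0.00417). On the opposite strand *Ctsb*, a lysosomal protease gene, covers 18.3% of the exon bases of *Fdft1*, and it is not given whether the counting used strand. *Lss*, lanosterol synthase, passed in neither, at 0.41 (0.03 to 0.80, adjusted p = 0.0664) and 0.51 (0.14 to 0.88, adjusted p = 0.0591).

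Of the 9 enzymes after lanosterol, 4 rose and 3 fell in WT livers, where 25.9% and 25.2% of all genes did. In KO livers 6 rose and 1 fell, where 9.19% and 7.85% of all genes did. *Cyp51*, the demethylase that acts on lanosterol, was 53.2, 55.03, 35.1, 49.2 and 39.3 CPM in WT livers on WD and 139.6, 183, 147, 202 and 119.9 CPM on CDA-HFD. Among KO livers the values were 49.2, 43.1, 45.97, 26.9 and 32.2 CPM on WD and 212, 162, 175, 148 and 120.4 CPM on CDA-HFD. The groups were separate in both genotypes. *Cyp51* rose by 1.77 (1.40 to 2.14, adjusted p = 1.98e-05) on the log2 scale in WT and by 2.05 (1.64 to 2.46, adjusted p = 9.47e-05) in KO livers.

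*Msmo1*, the oxygenase that strips methyl groups from the sterol, was 56.4, 61.3, 67.96, 53.8 and 34.9 CPM in WT livers on WD and 91.5, 177, 133, 191 and 106 CPM on CDA-HFD. The KO livers had 39.2, 45.4, 48.2, 42.9 and 48.00 CPM on WD and 176, 115, 164, 122 and 103 CPM on CDA-HFD. The groups did not overlap in either genotype, and WT livers 2 and 4 were high on CDA-HFD. This gave a log2 fold change of 1.35 (0.86 to 1.83, adjusted p = 0.000438) in WT and 1.61 (1.29 to 1.93, adjusted p = 8.36e-05) in KO livers. *Nsdhl*, the dehydrogenase that works in the same demethylation complex, rose in WT (0.86, adjusted p = 0.00779) and KO livers (1.34, adjusted p = 0.000881). *Hsd17b7*, the reductase of that complex, had 0.23 (adjusted p = 0.320) in WT livers and rose by 0.81 in KO livers (adjusted p = 0.00745).

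The 2 sterol reductases that act after *Cyp51* differed. *Lbr*, which also anchors chromatin at the nuclear envelope, rose by 0.44 in WT (adjusted p = 0.000948) and by 0.35 in KO livers (adjusted p = 0.0314), the latter past the threshold in only 3 of the 10 fits that left out 1 liver. *Tm7sf2* was lower on CDA-HFD in WT livers, at -0.51 (-0.93 to -0.09, adjusted p = 0.0413), past the threshold in 4 of 10 such fits, and had -0.02 (-0.33 to 0.29, adjusted p = 0.942) in KO livers. *Ebp*, the sterol isomerase, fell in WT livers from 109.8 ± 24.9 to 61.6 ± 17.9 CPM (adjusted p = 0.00480), and had -0.31 (-0.74 to 0.12, adjusted p = 0.295) in KO livers. *Sc5d*, the desaturase that follows, fell in WT livers from 397 ± 47.4 to 253 ± 65.02 CPM (adjusted p = 0.00602). In KO livers *Sc5d* fell from 421 ± 59.7 to 236 ± 85.5 CPM (adjusted p = 0.0310), past the threshold in 5 of the 10 fits that left out 1 liver. *Dhcr7*, a reductase near the end of the pathway, had 0.05 (adjusted p = 0.848) in WT livers and rose by 0.82 in KO livers (adjusted p = 0.0422), in 3 of 10 such fits.

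The 4 remaining genes handle sterols or are SREBP2 targets of other function. *Npc1*, which exports cholesterol from lysosomes, fell in WT livers from 243 ± 18.5 to 192 ± 15.1 CPM (log2 fold change -0.34, adjusted p = 0.00620), but with library size alone its value was 0.08. In KO livers it was -0.15 (-0.37 to 0.08, adjusted p = 0.345). The sterol carrier *Stard4*, the NPC1-binding membrane protein *Tmem97* and the retinol dehydrogenase *Rdh11* passed in neither genotype. Their log2 fold changes were -0.15, 0.16 and -0.20 in WT and -0.03, 0.37 and 0.38 in KO livers.

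Macrophage, stellate cell and cholangiocyte markers were also higher on CDA-HFD: 8 of 12, 8 of 9 and 7 of 8 tested rose in WT livers, and 6 of 12, 2 of 9 and 4 of 8 in KO livers. So were 9 of 12 cell cycle genes and 6 of 8 lymphocyte markers in WT livers, and 6 of 10 and 4 of 6 in KO livers. In WT livers 1 macrophage marker and 1 cell cycle gene fell. Of 10 hepatocyte markers, 4 fell in WT and 1 in KO livers, and of 8 endothelial markers 6 and 0, and the rest of both did not pass. Of all genes, 25.9% rose and 25.2% fell in WT livers, and 9.19% rose and 7.85% fell in KO livers. The part of these markers in the differences between the diets was not tested.

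The next question was whether loss of *Cideb* in hepatocytes changed these genes on WD. None of the 27 passed by edgeR's quasi-likelihood test, against 0.0757% of 15848 genes tested, or 12 genes (0.0126% higher and 0.0631% lower). Of the 27, 6 had an unadjusted p under 0.05, where 10.7% of all genes did, and 1 passed in DESeq2, where 0.915% did. The groups did not overlap for 1 gene, against 2.22% of all genes. That gene was *Sqle*, whose values are given above: each KO liver lay below each WT liver, by a small margin from WT liver 3. Its mean was 13.96 ± 9.35 CPM for WT and 4.33 ± 1.07 CPM for KO (SD, n = 5), and its log2 fold change -1.69 (-2.59 to -0.79). It did not pass in edgeR (adjusted p = 0.206) and passed in DESeq2 (adjusted p = 0.00472). Over the 10 fits that left out 1 liver, the edgeR adjusted p ranged from 0.105 to 0.4497. Without WT livers 1 and 2 together the value was -0.73 (adjusted p = 0.523), so those livers carry much of the size of the difference.

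WT livers 1 and 2 on WD were also high in other early enzymes. *Fdps*, picked out here after its values were seen, was 108, 109, 43.4, 39.9 and 37.4 CPM in WT livers 1 to 5 on WD, and 85.7, 67.2, 96.6, 29.5 and 52.5 CPM in KO livers. *Mvk*, *Mvd* and *Idi1* were highest in the same pair among WT livers. The average of the 7 mevalonate genes was 0.35 and 0.38 on the log2 scale in livers 1 and 2, relative to the WT mean, and -0.26, -0.22 and -0.24 in livers 3 to 5. The average of the macrophage markers was 1.09 and 0.40 in livers 1 and 2, and -1.05, -0.56 and 0.11 in livers 3 to 5, and that of the hepatocyte markers was -0.26 and -0.29, and 0.44, 0.20 and -0.09. Between KO and WT livers on WD, all 12 macrophage markers and all 10 cell cycle genes tested had estimates below 0, with medians of -0.52 and -1.004. Of the cell cycle genes 1 passed, where 0.0757% of all genes did. The part of these markers in the level of the mevalonate genes was not tested.

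For the other sensor genes on WD, *Srebf2* had a log2 fold change of -0.06 (-0.28 to 0.16) in KO against WT, *Insig1* -0.15 (-0.40 to 0.09) and *Insig2* -0.38 (-0.86 to 0.10), with adjusted p from 0.561 to 0.878. The interval of *Srebf2* leaves out a fall or rise of more than 0.28. The median of the 27 genes was -0.12, with 19 below 0 and 8 above, and that of all genes 0.01. After *Sqle*, the smallest adjusted p belonged to *Dhcr7*, at -0.52 (-0.89 to -0.14, adjusted p = 0.319).

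**Figure D3:**
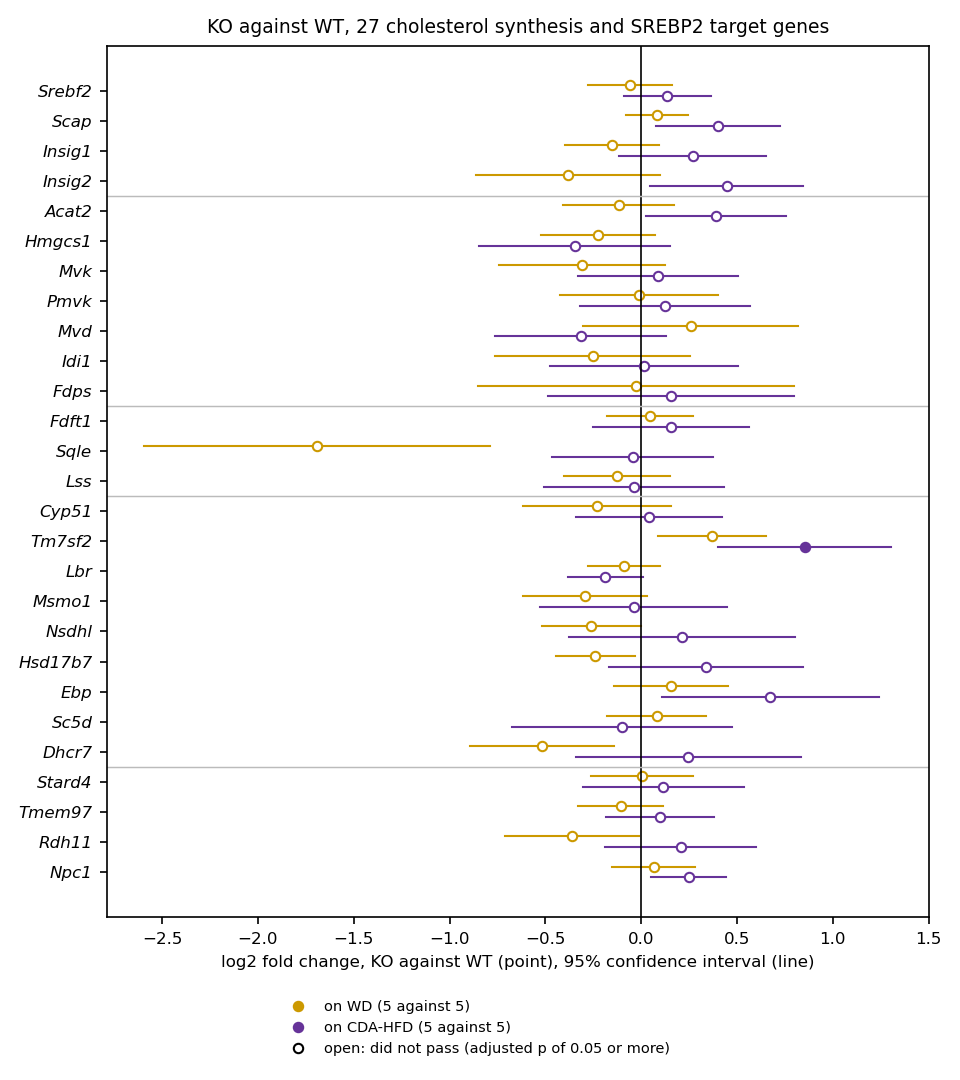
Log2 fold change of KO against WT (x axis) for each of the 27 genes (y axis, ordered by role), on WD (yellow) and on CDA-HFD (purple), each 5 livers against 5. Points are estimates and lines 95% confidence intervals; the 1 filled point, *Tm7sf2* on CDA-HFD at 0.85, passed the adjusted threshold, and *Sqle* on WD lies farthest from 0 at -1.69.

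On CDA-HFD, 1 of the 27 genes passed in KO against WT, against 15.5% of 17204 genes tested (8.19% higher and 7.29% lower). An unadjusted p under 0.05 by edgeR was found for 6 of the 27, where 35.3% of all genes had one. The gene that passed was *Tm7sf2*, one of the sterol reductases that act after *Cyp51*. It was 24.4, 39.8, 26.4, 41.2 and 20.5 CPM in WT and 64.5, 50.3, 66.5, 51.5 and 42.5 CPM in KO livers on CDA-HFD. On WD it was 37.2, 41.4, 49.8, 50.5 and 37.7 CPM in WT and 44.2, 57.5, 67.98, 59.6 and 50.1 CPM in KO livers. On CDA-HFD each KO liver lay above each WT liver, KO liver 5 by little, while on WD the groups overlapped. The log2 fold change on CDA-HFD was 0.85 (0.40 to 1.31, adjusted p = 0.0238), and it passed in 4 of the 10 fits that left out 1 liver, with adjusted p from 0.00398 to 0.0675. Of its exon bases, 12.1% also belong to *Vps51* on the same strand, where reads cannot be assigned to one gene.

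The groups did not overlap for 2 of the 27 genes on CDA-HFD, against 9.50% of all genes: *Tm7sf2* and *Npc1*. *Npc1* was 177, 202, 199.9, 208 and 175 CPM in WT and 249.6, 236, 231, 218 and 209 CPM in KO livers, a small and even difference of 0.25 on the log2 scale (0.05 to 0.44, adjusted p = 0.0769). Leaving out KO liver 5 changed the count most. Without it, 5 genes were higher in KO livers and 0 lower: *Scap*, *Acat2*, *Tm7sf2*, *Ebp* and *Npc1*, with log2 fold changes of 0.49, 0.46, 0.93, 0.85 and 0.27. The share of all genes past the threshold rose too without that liver, to 41.4% (19.6% higher and 21.8% lower). With all 20 livers in 1 fit, 4 passed, *Scap*, *Tm7sf2*, *Ebp* and *Npc1*, and with DESeq2 2 passed, *Tm7sf2* and *Npc1*, where 23.4% and 21.1% of all genes did. The median of the 27 genes was 0.14, with 20 above 0, and that of all genes was 0.005.

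*Sqle*, *Idi1* and *Cyp51*, the enzymes with the greatest rises between the diets, had estimates near 0 between the genotypes on CDA-HFD. *Sqle* was 93.1 ± 18.5 CPM for WT and 90.5 ± 23.4 CPM for KO, a log2 fold change of -0.05 (-0.47 to 0.38). *Idi1* had 0.02 (-0.48 to 0.51) and *Cyp51* 0.04 (-0.34 to 0.42). Their intervals leave out differences of more than 0.51 on the log2 scale. The other genes that rose in WT livers on CDA-HFD ran from *Hmgcs1* at -0.35 (-0.84 to 0.15) to *Nsdhl* at 0.21 (-0.38 to 0.80). None of them passed between the genotypes. Of the sensor genes, *Srebf2* had 0.14 (-0.09 to 0.36), *Insig1* 0.27 (-0.11 to 0.65) and *Insig2* 0.45 (0.05 to 0.85), with adjusted p of 0.357, 0.287 and 0.107. Of 12 macrophage markers, 6 were lower in KO livers on CDA-HFD and 0 higher, and 8 of 12 cell cycle genes and 2 of 9 stellate cell markers were lower. Of all genes, 7.29% were lower and 8.19% higher. None of the hepatocyte, cholangiocyte, endothelial and lymphocyte markers tested passed by edgeR, and 3, 2, 4 and 1 of them had an unadjusted p under 0.05, where 35.3% of all genes did. Their part in these values was not tested.

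The last comparison asked whether the effect of KO differed between the diets, which is the same as asking whether the effect of diet differed between WT and KO livers. None of the 27 genes passed, by edgeR's quasi-likelihood test on all 20 livers, against 0.556% of 17804 genes, or 99 genes (0.331% higher and 0.225% lower). Of the 27, 6 had an unadjusted p under 0.05, where 15.4% of all genes did, and 1 passed in DESeq2, where 2.90% did. It was *Sqle*, at 1.65 (0.67 to 2.64, adjusted p = 0.117 in edgeR and 0.0298 in DESeq2). It passed in edgeR without KO liver 5 on CDA-HFD (1.78, adjusted p = 0.0201), where 11.9% of all genes then passed, and was 0.69 (adjusted p = 0.244) without WT livers 1 and 2 on WD. So the genes that passed between the diets in only one genotype, *Mvd*, *Scap*, *Insig1*, *Acat2*, *Tm7sf2*, *Ebp* and *Npc1* in WT livers and *Hsd17b7* and *Dhcr7* in KO livers, are not shown to differ between the genotypes. *Insig2* had 0.84 (0.20 to 1.47, adjusted p = 0.206) and *Srebf2* 0.20 (-0.10 to 0.50, adjusted p = 0.525). The median over the 27 genes was 0.28, with 23 above 0, and that of all genes was 0.02.

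Livers within a group differed for many of these genes at once. On CDA-HFD, WT liver 4 was the highest of its group for 16 of the 27 genes and WT liver 2 for 9, while livers 1 and 5 were each the lowest for 12. Among KO livers on CDA-HFD, liver 3 was the highest for 13 and liver 1 for 10, and liver 5 was the lowest for 18. The average of the 27 genes, on the log2 scale relative to WT livers on WD, was 0.03, 0.60, 0.20, 0.65 and 0.09 in WT livers 1 to 5 on CDA-HFD, and 0.73, 0.47, 0.75, 0.29 and 0.07 in KO livers. Over the same livers the average of the hepatocyte markers was -1.01, -0.23, -0.49, -0.02 and -0.66 in WT and -0.04, -0.06, 0.22, 0.18 and -0.81 in KO livers. The lowest liver for hepatocyte markers was thus also the lowest for the 27 genes in each group on CDA-HFD, but not on WD. There WT liver 2 was lowest for hepatocyte markers (-0.29) and highest for the 27 genes (0.16). Among KO livers on WD, liver 1 was lowest for hepatocyte markers (-0.09) and liver 4 for the 27 genes (-0.36). The part of these markers in this spread was not tested. The median coefficient of variation of the 27 genes was 14.4% in WT and 14.6% in KO livers on WD, and 23.0% and 23.6% on CDA-HFD. The most even gene was *Scap* on WD, at 4.24% in WT and 7.61% in KO livers, and *Npc1* on CDA-HFD, at 7.84% and 6.87%. *Fdps* varied by 32.3% to 55.3% in the 4 groups. Of its exon bases, 26.7% also belong to the predicted gene *Gm43738* on the same strand.

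**Figure D4:**
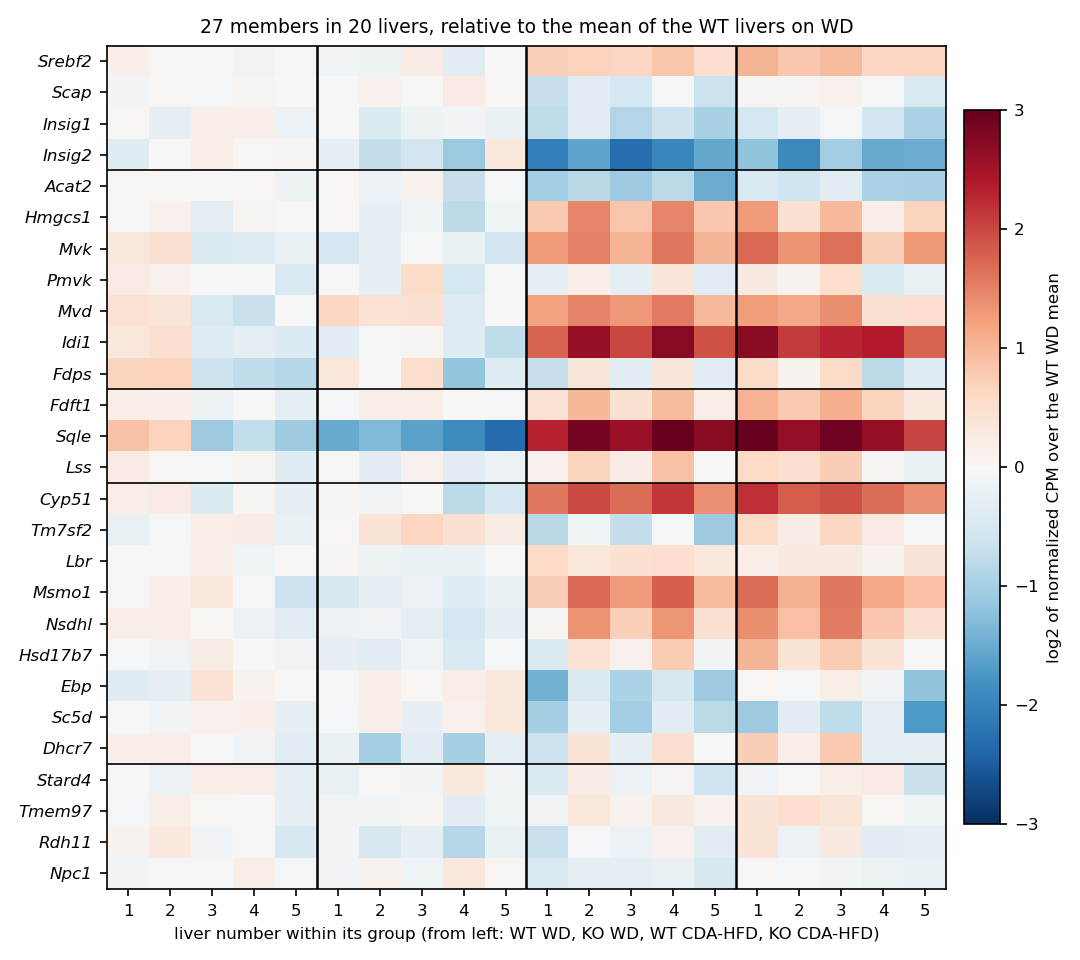
Each of the 27 genes (rows, by role, divided by lines) in each of the 20 livers (columns, grouped by genotype and diet), coloured by the log2 of its normalized CPM over the mean of WT livers on WD, from blue (lower) to red (higher), with colours limited at 3 in either direction. *Sqle*, *Idi1*, *Cyp51*, *Mvk* and *Msmo1* are red through all 10 livers on CDA-HFD, and *Insig2* is blue in them.

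Other genes of sterol metabolism, from a list of 47 of which 45 were tested, more often fell than rose on CDA-HFD among those that passed. In WT livers 25 fell and 8 rose, where 25.2% and 25.9% of all genes did. In KO livers 9 fell, 2 rose and 34 did not pass, where 7.85% and 9.19% of all genes fell and rose. The smallest adjusted p in WT livers belonged to *Srebf1*, which encodes the sister factor SREBP1 (log2 fold change -2.38), the cytochrome b5 reductase *Cyb5r3* (-1.23) and *Nfya*, a subunit of NF-Y (1.04). In KO livers they were *Srebf1* (-2.03), *Cyb5r3* (-0.95) and *Soat2*, which esterifies cholesterol (-0.70). Between KO and WT livers on CDA-HFD, 3 rose and 4 fell, a share near that of all genes (8.19% higher and 7.29% lower), and the smallest p belonged to the lysosomal acid lipase *Lipa* (-0.51), the cytochrome P450 reductase *Por* (0.89) and *Prkaa1*, a subunit of AMP-activated kinase (-0.44). On WD none of the 45 passed in KO against WT by edgeR, and 3 had an unadjusted p under 0.05, where 10.7% of all genes did.

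Genes listed for fatty acid synthesis, the branch that SREBP1 controls, moved opposite to the enzymes of sterol synthesis that rose. The list also holds genes that encode none of its enzymes, such as *Pnpla3* and the factor gene *Mlxipl*. All 17 on the list fell on CDA-HFD in WT livers, with a median log2 fold change of -2.38, and 14 of 17 fell in KO livers, with a median of -2.03, where 25.2% and 7.85% of all genes were lower. *Scd1*, which makes monounsaturated fatty acids, fell from 55096 ± 9555 to 209 ± 196 CPM in WT and from 47910.3 ± 9759 to 22.3 ± 25.7 CPM in KO livers (SD, n = 5). In WT livers the smallest adjusted p belonged to *Acacb* (-3.52), *Me1* (-3.46) and *Pnpla3* (-3.44), and in KO livers to *Me1* (-3.58), *Scd1* (-11.03) and *Elovl5* (-2.24). In KO against WT on CDA-HFD 3 of 17 rose and 1 fell, where 8.19% and 7.29% of all genes did. The smallest p belonged to *Mlxipl*, which encodes the carbohydrate-sensing factor ChREBP (1.07), *Acacb* (1.05) and *Scd1* (-3.21).

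Of 13 targets of LXR, the receptor for oxysterols, which are formed when cholesterol is in excess, 8 fell and 2 rose on CDA-HFD in WT livers, where 25.2% and 25.9% of all genes did, and 7 fell and 0 rose in KO livers, where 7.85% and 9.19% did. Some of them, such as *Srebf1* and *Scd1*, are also on the lists above. *Abcg5*, a subunit of the transporter that sends cholesterol into bile, fell in WT livers from 219 ± 75.3 to 40.2 ± 11.5 CPM (log2 fold change -2.45). *Lpcat3*, which puts polyunsaturated chains into phospholipids, fell in KO livers from 173 ± 12.6 to 82.1 ± 12.2 CPM (log2 fold change -1.07). On CDA-HFD *Abcg8* and *Abcg5* were higher in KO than in WT livers, at 0.92 and 0.80, and *Scd1* was lower. On WD 0 of 17 genes of fatty acid synthesis and 0 of 13 LXR targets passed in KO against WT by edgeR, and 4 and 0 had an unadjusted p under 0.05, against 10.7% of all genes. In the comparison of the KO effects between the diets, 0 of 45, 0 of 17 and 0 of 13 genes of these lists passed, and 12, 5 and 3 had an unadjusted p under 0.05, against 15.4% of all genes.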

How the data were processed

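RNA was measured by RNA-seq, as 75-base single-end reads, in 20 mouse livers, 5 in each of 4 groups taken from the labels. The authors deposited raw counts of reads per gene symbol, which are whole numbers with no normalization, and their processing notes name the mouse build mm10. The aligner and the counting program are not given in the sources used here. The labels name a directional NEBNext kit and the study's methods a Nugen Ovation kit, so it is not known whether strand was used in counting. The table's last 5 entries count reads that were given to no gene. They made up 50.3% to 57.0% of all reads tallied per liver, and were left out of library sizes and fits.

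In edgeR 4.0.16 (R 4.3.3), low counts were removed with filterByExpr, libraries scaled by TMM, and genes tested by the quasi-likelihood F test. P-values were adjusted over all genes tested (Benjamini-Hochberg), and the threshold was 0.05. Each 2-group comparison was fitted on its 10 livers, and the interaction of diet and genotype on all 20. List averages are means of log2 CPM, for which the prior count was 2. The fits were tested on simulated data with known changes. Alternatives were RLE scaling, library size only, DESeq2 1.42.0, no filter, a filter of 10 counts in each library, 1 fit of all 20 livers, a replicate block and each liver left out in turn. Leaving out WT livers 1 and 2 on WD together was added after seeing the data. Numbers in the labels were not taken as pairs in the main fits. The correlation of same-numbered livers, over genes, lay between -0.485 and 0.445, and for number 4 it was 0.387, 0.414, 0.322 and 0.445. Livers of unlike number were not compared, so this range cannot exclude pairing. No library was a copy of another of its group: over 40 pairs, counts differed by at least 6.24 times the sampling noise.

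The 27 genes, the lists and the alternatives were chosen with earlier results of these data known. Values per liver are given for genes past the threshold, at most the 6 with the smallest adjusted p per comparison, and in any case for *Srebf2*, *Insig1*, *Insig2* and *Sqle*. Of the 3 other lists, the 3 genes with the smallest adjusted p per comparison were taken, and are printed where any gene of the list passed. Exon lengths and shared exons come from GENCODE M21 (GRCm38) and promoters from RefSeq (GRCm38.p6). Figures were made with matplotlib 3.10.9 (Python 3.11.15).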

Additional observations from a re-analysis of the deposited data

Results flagged for a closer look

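Each of the 27 genes was checked in each group of 5 livers for a highest or lowest liver whose gap to its nearest neighbour was large against the group's whole range, by Dixon's ratio with a critical value of 0.71. Of 108 sets of 5 values, 1 passed, where chance gives about 5.4. It was *Npc1* in WT livers on WD, with a ratio of 0.796, where liver 4 had 275 CPM and livers 1, 2, 3 and 5 had 228, 237, 237 and 238 CPM.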

How the results depend on the processing

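No scaling, filter or tool that kept all livers changed the direction of a gene that had passed, except *Npc1*. Scaled by library size only, 4 genes were lower between the diets in WT livers, where 9.39% of all genes were. The median of the 27 genes was then 0.57 in WT and 0.61 in KO livers. *Npc1* turned to 0.080 in WT livers, and *Scap*, *Tm7sf2* and *Sc5d* no longer passed there. By the same scaling *Srebf2* turned to -0.057 for KO against WT on CDA-HFD. With DESeq2, 1 gene was lower in KO livers on WD, 2 were higher on CDA-HFD and 1 was higher in the difference between the diets. In 1 fit of all 20 livers, 4 rose with KO on CDA-HFD. Leaving out WT livers 1 and 2 on WD together, chosen after seeing the data, turned *Srebf2* to 0.015 for KO against WT on WD. *Tm7sf2* also did not pass in WT livers with at least 10 counts in every library, and *Lbr* did not in KO livers with no filter. With the replicate block, the number higher and the number lower among the 27 genes each stayed within 1 of those without it in every comparison. The share of all genes past the threshold between the diets in KO livers went from 17.0% to 12.5%. The adjusted p of *Lbr* in that comparison became 0.0535.

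With each liver left out in turn, the number of genes higher in KO livers on CDA-HFD ranged from 0 to 5, the number lower on CDA-HFD in KO livers from 1 to 3 and the number higher in the difference between the diets from 0 to 1. *Sqle* for KO against WT on CDA-HFD ranged from -0.16 to 0.081. Among the named genes, 476 of the values with a liver left out kept their direction and side of the threshold, 31 no longer passed, 1 newly passed and 2 turned. Genes with few reads, such as *Idi1*, *Mvd* and *Sqle* on WD, carry the widest counting error.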
